A study of Mus musculus with 4 samples.

Results

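The genes described here are 10 mediators of the DNA damage response, namely *Mdc1*, *Rnf8*, *Trp53bp1*, *Atm*, *Atr*, *Topbp1*, *Brca1*, *Brca2*, *Fancd2* and *Scml2*. They were taken by symbol out of 37718 gene rows. Without *Rnf8*, they hold 726 of the 605144 deposited exon segments and splice junctions (390 segments, 327 annotated junctions and 9 unannotated junctions). *Rnf8* lies in a row merged with other genes, whose segments and junctions are not counted here. All 10 genes together hold 312 of the 207562 deposited introns. *Mdc1* was chosen by the usage of its exon segment 13, which differed between the genotypes in these same samples, so its values are given as a description without a test. The others were listed by function.

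RNA came from germ cells of juvenile mouse testes at 20 days post partum, with 2 samples of *Tdrd6*+/- and 2 samples of *Tdrd6*-/- mice, each pooled from at least 4 mice. *Tdrd6* encodes a Tudor domain protein of the chromatoid body, a cytoplasmic RNA granule of male germ cells. The cells were enriched for the diplotene stage of meiotic prophase with magnetic beads against human CD4, which the germ cells of both genotypes expressed from the endogenous *Tdrd6* promoter. The control is the heterozygote, and no wild type was included. Total RNA was depleted of ribosomal RNA, and the authors deposited raw counts of fragments per gene, exon segment, junction and intron. Since the samples are pools, p-values measure the spread between these pools, and fewer cells of a type and less RNA per cell cannot be told apart.

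A DNA double-strand break activates the kinases ATM and ATR, which phosphorylate the histone H2AX next to the break. MDC1 binds the phosphorylated histone and spreads the signal, and the ubiquitin ligase RNF8 then marks the chromatin so that 53BP1 and BRCA1 can gather. In male meiosis the same factors act without exogenous damage: BRCA1, TOPBP1 and ATR load on the unsynapsed axes of the X and Y chromosomes, MDC1 carries the mark into the chromatin loops, and the sex chromosomes are silenced. SCML2, a germline Polycomb protein encoded on the X chromosome, works downstream of this step, while BRCA2 and FANCD2 serve homologous recombination and crosslink repair.

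The gene counts summed to between 26454326 and 31388750 per sample and the intron counts to between 9603669 and 13937818. The *Tdrd6* gene count was 33220 and 39322 in the heterozygous samples, against 359 and 400 in *Tdrd6*-/-, as the labels say. Markers of spermatocytes summed to between 4574 and 4826 CPM (gene counts relative to the library total, with TMM normalization), and none of the 8 was at 0. In the edgeR test 1 of them passed upwards and 1 downwards. The 8 round spermatid markers summed to 23.98 and 33.4 CPM in *Tdrd6*+/- and to 42.9 and 40.1 CPM in *Tdrd6*-/-, without overlap, and 2 of them passed the edgeR test upwards. Of all genes tested, 1.02% passed upwards and 3.78% downwards. Spermatogonia markers summed to between 23.5 and 32.5 CPM and Sertoli markers to between 44.9 and 57.1 CPM, both higher in each *Tdrd6*-/- sample, while Leydig markers (26.0 to 32.9 CPM) and macrophage markers (13.7 to 22.1 CPM) overlapped. No marker was at 0 in any of these lists, and their part in the results was not tested. Of all fragments the intron counter tallied, introns took 30.95% and 27.1% in *Tdrd6*+/- cells, against 27.4% and 21.9% in *Tdrd6*-/- cells.

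The segment of *Mdc1* that stood apart carries a repeat, and its sequence is shown for that reason. *Mdc1* (ENSMUSG00000061607) lies on the plus strand of chromosome 17 of mm10 from 35841515 to 35859670. Segment 13, at chr17:35852415-35853888, is 1474 bp long and entirely coding, and it is exon 10 of the transcript Mdc1-201. When the segment was compared with itself at each shift from 3 bases on (397 shifts, without gaps), the highest identity was 38.4%, at a shift of 123 bases, against a median of 26.5%. Another long segment, number 8 (1343 bp), reached at most 33.0% against a median of 25.7%. In segment 13, 6 stretches of 60 bases had at least 36 bases in common with the best matching stretch, the third to the sixth of them 114 to 123 bases after the one before. They are printed below 5′ to 3′ on the coding strand from GENCODE M21 transcripts, with the 29 bases that all 6 share in capitals.
Copy 1, chr17:35852729-35852788: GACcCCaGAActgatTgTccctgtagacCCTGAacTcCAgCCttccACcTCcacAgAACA
Copy 2, chr17:35852957-35853016: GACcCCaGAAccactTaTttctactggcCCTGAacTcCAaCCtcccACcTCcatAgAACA
Copy 3, chr17:35853080-35853139: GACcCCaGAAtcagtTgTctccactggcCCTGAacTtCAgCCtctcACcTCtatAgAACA
Copy 4, chr17:35853197-35853256: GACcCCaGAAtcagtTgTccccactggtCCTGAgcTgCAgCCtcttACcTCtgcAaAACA
Copy 5, chr17:35853317-35853376: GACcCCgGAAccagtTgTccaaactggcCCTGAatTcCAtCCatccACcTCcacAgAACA
Copy 6, chr17:35853431-35853490: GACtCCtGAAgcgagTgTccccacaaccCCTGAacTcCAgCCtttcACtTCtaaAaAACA
The capitals come in short blocks that recur along the segment at nearly the same spacing. The proline-, serine- and threonine-rich repeat of MDC1, with which the protein binds DNA repair partners, is known background for this gene, although no protein sequence was read here.

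The exon before it, segment 12, is short. It is shown whole because it is joined to segment 13 and had the next highest ratio of *Tdrd6*-/- to *Tdrd6*+/- CPM among segments with at least 100 counts. It spans chr17:35851113-35851156 and its 44 bases read:
Segment 12: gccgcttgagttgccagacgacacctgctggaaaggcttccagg
Neither length is a multiple of 3 (the remainders are 2 for segment 12 and 1 for segment 13), but the 2 segments together hold 1518 bases, or 506 codons.

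MDC1 is the adaptor of the pathway, and its RNA was lower in the *Tdrd6*-/- samples. Its gene counts were 15123 and 14180 in *Tdrd6*+/- and 9058 and 7630 in *Tdrd6*-/-, or 577, 509, 286 and 238 CPM. Both *Tdrd6*-/- samples lay below both *Tdrd6*+/- samples, with a fitted log2 change of -1.05 (SE 0.14). For comparison, the median log2 change of the 16555 genes tested was 0.01, and 4.80% of them passed the false discovery rate of 0.1 in edgeR's quasi-likelihood test in either direction, 3.78% downwards.

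Segment 13 kept more of its counts than the rest of the gene. It had 1503 and 1519 counts in *Tdrd6*+/- and 1427 and 1245 in *Tdrd6*-/-, so its level in *Tdrd6*-/- was 0.751 times that in *Tdrd6*+/- after scaling. Outside segment 13 the gene held 13620 and 12661 counts against 7631 and 6385, or 487 CPM ± 46.4 against 220 CPM ± 29.6 (SD, n = 2 each), a ratio of 0.452. The share of segment 13 in the gene count was therefore 10.3% ± 0.547 in *Tdrd6*+/- and 16.0% ± 0.398 in *Tdrd6*-/- (SD, n = 2 each). Both samples with the larger share were *Tdrd6*-/-, with a fitted log2 change in usage of 0.73. Usage here means the count of a segment relative to the rest of its gene's count, so a larger usage does not mean more fragments on the segment.

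**Figure D1:**
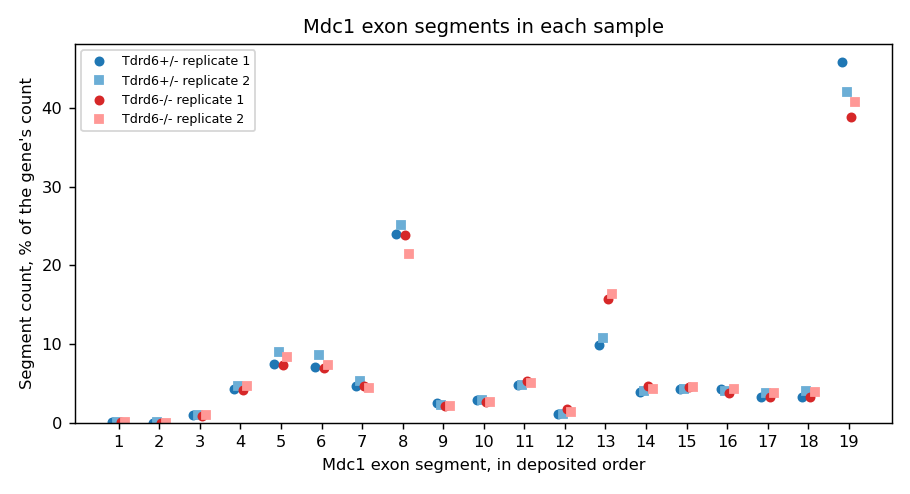
Count of each of the 19 *Mdc1* exon segments as a percentage of the gene count (y axis) in deposited order (x axis), with 1 point per sample, *Tdrd6*+/- in blue and *Tdrd6*-/- in red. Segment 13 holds about 10.3% in the blue samples and 16.0% in the red ones, while the large last segment, number 19, is lower in the red samples.

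The other segments moved together. Of the 17 *Mdc1* segments with at least 100 counts over the 4 samples, 17 had a lower CPM in both *Tdrd6*-/- samples than in both *Tdrd6*+/- samples, segment 13 included. They are parts of 1 gene with a lower count, so they are not 17 separate observations. Without segment 13, the ratio of *Tdrd6*-/- to *Tdrd6*+/- CPM ran from 0.422 in segment 9 to 0.687 in segment 12, with a median of 0.464, and the second highest was 0.554 in segment 14. Summed over each side of the segment, the ratios were nearly equal, 0.455 for segments 3 to 11 and 0.456 for segments 14 to 19. These sums include neighbours with higher ratios, such as segment 11 at 0.519, so they do not show an even ratio along each side. The ratio thus had a peak of a few neighbouring segments, 11 to 15, with its top at 12 and 13.

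**Figure D2:**
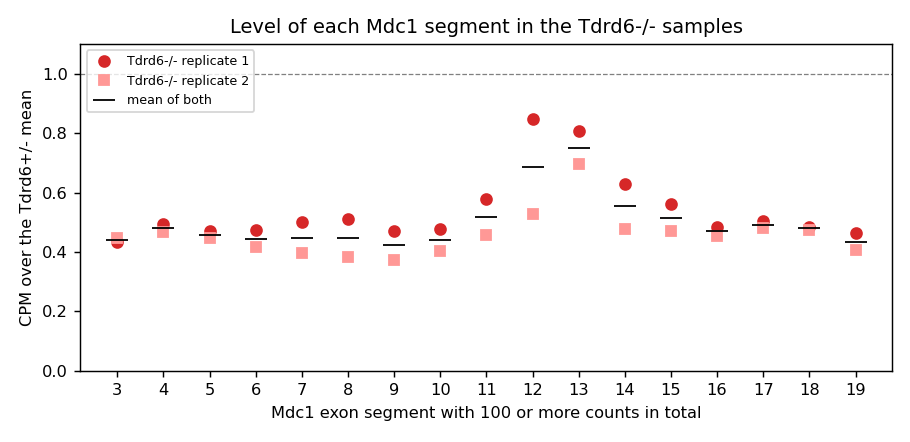
CPM of each *Mdc1* segment with 100 or more counts in the 2 *Tdrd6*-/- samples, divided by the *Tdrd6*+/- mean (y axis, from 0), along the segments in deposited order (x axis), with black dashes for the mean of both samples. The dashes stay near 0.464 over most of the gene and reach 0.687 in segment 12 and 0.751 in segment 13, and no point reaches the dashed line of equal levels.

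Segment 12 had 170, 156, 162 and 102 counts, and its *Tdrd6*-/- replicate 1 lay between the *Tdrd6*+/- samples in raw counts. Per 100 counts of the following segment 14, segment 13 had 255 and 265 counts in *Tdrd6*+/- and 333 and 377 in *Tdrd6*-/-. Against the long segment 8 it had 41.4 and 42.7 counts per 100 in *Tdrd6*+/- and 66.2 and 76.1 in *Tdrd6*-/-. Both measures restate the usage of segment 13 by which the gene was chosen, so that the genotypes do not overlap in them is description only.

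The junctions that bound the segment were covered by few fragments. The junction from segment 12 into 13 (intron chr17:35851157-35852414) had 76, 77, 88 and 48 counts, in the order *Tdrd6*+/- replicates 1 and 2, then *Tdrd6*-/- replicates 1 and 2. That from segment 13 into 14 (intron chr17:35853889-35854020) had 242, 244, 207 and 138 counts. The next junction, from 14 into 15, had 330, 329, 221 and 176 counts and serves as a reference next to the segment. Segment 14 itself lies within the peak (ratio 0.554), so the junction from 14 into 15 is not a neutral measure of the whole gene. Relative to 100 counts of this junction, the entry junction had 23.0 and 23.4 counts in *Tdrd6*+/- and 39.8 and 27.3 in *Tdrd6*-/-, and the exit junction 73.3 and 74.2 against 93.7 and 78.4. All 4 values of the *Tdrd6*-/- samples were above those of *Tdrd6*+/-, but the 2 *Tdrd6*-/- samples differed from each other by more than replicate 2 differed from the controls.

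The annotated junction from segment 11 into 12 was almost unused, with 1, 2, 4 and 2 counts, although the 107 bp intron between them, number 8, held 86, 79, 77 and 58 counts. There were 3 unannotated junctions in *Mdc1*, whose positions the files do not give. The first had 23, 24, 9 and 6 counts, or 6.97 and 7.29 per 100 counts of the junction from 14 into 15 in *Tdrd6*+/- and 4.07 and 3.41 in *Tdrd6*-/-. The second had 107, 112, 65 and 58 counts and the third 78, 61, 62 and 39. Only the first of these 3 separated the genotypes relative to that junction, on 9 and 6 counts in *Tdrd6*-/-. Such separation is common with 2 samples per genotype, as the CPM groups did not overlap in 43.5% of all genes tested.

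The start of the gene was covered by few fragments. Segments 1 and 2, at the far upstream end, had between 2 and 14 counts per sample, and the start region used by most fragments was segment 3, with 157, 137, 75 and 78 counts. The junction out of segment 3 had 129, 123, 64 and 59 counts, against 4, 5, 0 and 2 for the junction from the shorter upstream end. The upstream form was thus 3.01% and 3.91% of both junctions in *Tdrd6*+/-. In *Tdrd6*-/- it was 0 of 64 fragments in replicate 1, which allows a share of up to 4.69% (counting error only), and 3.28% in replicate 2, so no difference was detectable at this depth.

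The *Mdc1* introns held few counts, 1278 and 1167 in *Tdrd6*+/- and 960 and 777 in *Tdrd6*-/- over 15 introns. This was 8.45 and 8.23 intron counts per 100 exonic counts in *Tdrd6*+/- and 10.6 and 10.2 in *Tdrd6*-/-, the lowest load of the 10 genes in every sample. After scaling intron counts, 13 of the 15 introns were lower in both *Tdrd6*-/- samples, and none was higher in both. Of all introns with 40 or more counts in total, which all 15 had, 22.5% were lower in both and 18.2% higher. As parts of 1 gene, the 15 are not separate observations. The introns were thus also lower, but less so than the exons, with a log2 change of the intron to exon ratio of 0.59 (SE 0.20). Intron 1 was the most covered (481, 418, 358 and 288 counts), with 36.7% ± 1.29 of all *Mdc1* intron counts in *Tdrd6*+/- and 37.2% ± 0.160 in *Tdrd6*-/- (SD, n = 2 each). Intron 11 had 20, 12, 7 and 6 counts. Introns 9 and 10, which flank segment 13, had log2 changes in usage of 0.14 and 0.08.

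Of the other 9 genes, none passed the false discovery rate of 0.1 at the gene level (quasi-likelihood test of edgeR, Benjamini-Hochberg adjusted, against 4.80% of all genes). At an unadjusted p under 0.05 there were 2 of 9, *Trp53bp1* and *Brca2*, both lower, against 2316 of all 16555 genes. A DESeq2 Wald test also called 0 of the 9, against 744 of all 12573 genes it tested. Their log2 changes ran from -0.41 to 0.29, with a median of -0.06. Both *Tdrd6*-/- samples lay below both *Tdrd6*+/- samples in 3 genes, above in 2, and the groups overlapped in 4. Of all genes tested, the CPM of the groups did not overlap in 43.5%.

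*Rnf8* (ENSMUSG00000090083, chromosome 17), the ubiquitin ligase next in line after MDC1, could not be read on its own at the exon level, because the gene row joins 5 overlapping genes, among them *Cmtr1* and *Tbc1d22b*. That row had 5444 and 6085 counts in *Tdrd6*+/- and 6780 and 6636 in *Tdrd6*-/-, a log2 change of -0.02 (SE 0.13, adjusted p = 0.978 from edgeR). In CPM the groups overlapped, at 208, 218, 214 and 207. The intron file does list 7 introns under *Rnf8* alone, with 2548, 2330, 2732 and 2649 counts in all, so its introns were read more deeply than those of *Mdc1*. All 7 were tested for usage and none passed. The most covered, number 4, held 23.0% ± 0.615 of these counts in *Tdrd6*+/- and 22.9% ± 0.0272 in *Tdrd6*-/- (SD, n = 2 each), and the one with the smallest p, number 6, went from 11.6% ± 0.255 to 10.7% ± 0.233 (log2 change -0.13, adjusted p = 0.912, DESeq2).

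*Trp53bp1* encodes 53BP1, which favours end joining at breaks and is recruited through MDC1 and RNF8. On the minus strand of chromosome 2 (121193281 to 121271407), it had 4195 and 3801 counts in *Tdrd6*+/- and 3707 and 3411 in *Tdrd6*-/-. In CPM these were 160, 136, 117 and 107, and both *Tdrd6*-/- values were the lower ones. The log2 change of -0.41 (SE 0.13) missed the threshold, with adjusted p = 0.119 from edgeR. Without *Tdrd6*+/- replicate 2 the adjusted p was 0.0426, and with the other samples left out, other size factors, no filter or DESeq2 it was between 0.119 and 0.794. Among its 60 tested segments and junctions, the smallest p was for segment 56 (chr2:121267312-121269629, 2318 bp). It had 137 and 96 counts against 54 and 71, and 2.90% ± 0.523 of the gene count against 1.77% ± 0.442 (SD, n = 2 each; log2 change -0.74, adjusted p = 0.603, DESeq2). Its smallest intron p was for number 4, which had 9, 16, 31 and 16 counts, too few to be tested. The most covered intron, number 9, held 10.8% ± 0.0673 and 10.02% ± 1.43 of the intron counts (SD, n = 2 each).

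The kinase pair had very unequal levels. *Atr* (chromosome 9, 95857597 to 95951781, plus strand) was the most abundant of the 9 genes with a row of their own per kb of exon, at 262 ± 19.1 CPM per kb (SD, n = 4), rank 115 of 18800 genes with an exon length. Its counts were 60110 and 59405 in *Tdrd6*+/- and 66258 and 61472 in *Tdrd6*-/-. In CPM these were 2295, 2133, 2095 and 1921, so both *Tdrd6*-/- samples were lower, by a log2 change of -0.14 (SE 0.13, adjusted p = 0.717, edgeR). *Atm* (chromosome 9, minus strand), the kinase for double-strand breaks, had 664, 539, 707 and 616 counts, overlapping groups and a log2 change of -0.10 (SE 0.18, adjusted p = 0.877, edgeR). At 2.10 ± 0.283 CPM per kb (SD, n = 4) it ranked 9162, although its deposited segments did not match the annotation in number, so its exon length is uncertain and its introns have no positions.

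**Figure D3:**
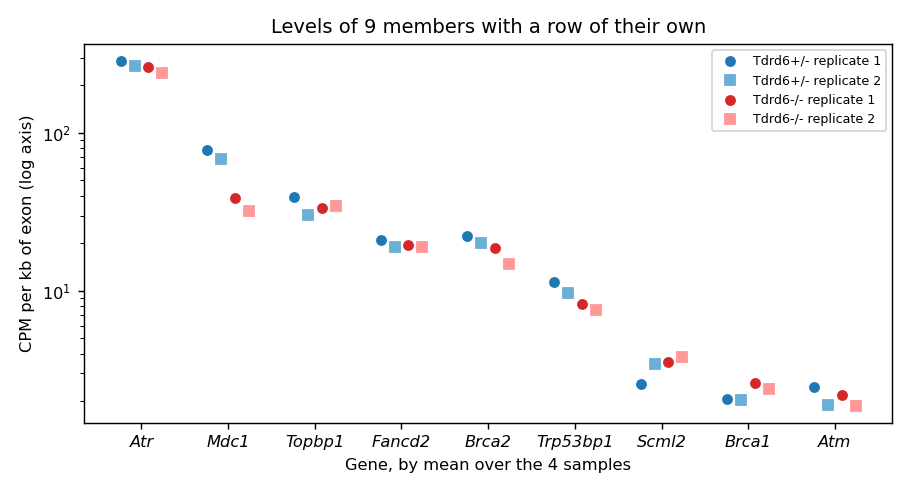
CPM per kb of exon on a log axis (y) in each of the 4 samples for the 9 genes with a row of their own (x), ordered by their mean. *Atr* lies far above the others at 262 CPM per kb, *Mdc1* is the gene in which the red *Tdrd6*-/- points lie farthest below the blue *Tdrd6*+/- points, and *Scml2*, *Brca1* and *Atm* are the lowest.

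The depth on *Atr* allowed most of its parts to be tested. Of its 96 segments and junctions 93 were tested, and of its 46 introns 40, and none passed. The first segment, at the start of the gene (chr9:95857597-95857783), had the smallest p, with 473 and 544 counts against 680 and 704, or 0.851% ± 0.0911 of the gene count against 1.09% ± 0.0841 (SD, n = 2 each; log2 change 0.35, adjusted p = 0.626, DESeq2). Intron 14 (chr9:95875765-95878454) had the smallest intron p and went from 1.12% ± 0.178 to 0.723% ± 0.0771 of the gene's intron counts (SD, n = 2 each; log2 change -0.64, adjusted p = 0.282, DESeq2). The most covered, intron 1, held 9.22% ± 1.09 and 10.2% ± 0.0366 (SD, n = 2 each). In *Atr* as a whole there were 20.0, 17.9, 17.3 and 15.6 intron counts per 100 exonic counts, lower in both *Tdrd6*-/- samples, as in the median gene, and relative to the median gene the ratio was 0.256, 0.276, 0.269 and 0.325, with overlapping groups. None of the 138 segments and junctions and 62 introns of *Atm* reached the tested range, and of these segment 38 (27, 28, 14 and 15 counts) and intron 54 (1, 2, 7 and 5 counts) had the smallest p. Its most covered intron, number 26, had 35, 20, 21 and 25 counts.

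TOPBP1 activates ATR, and BRCA1 brings ATR to unsynapsed chromosome axes. *Topbp1* (chromosome 9, 103305215 to 103350428) had 5374 and 4418 counts in *Tdrd6*+/- and 5506 and 5727 in *Tdrd6*-/-, with overlapping groups in CPM and a log2 change of -0.04 (SE 0.14, adjusted p = 0.936, edgeR). *Brca1* (chromosome 11, 101488764 to 101551955, minus strand) had only 457, 477, 696 and 651 counts. In CPM it was 17.5 and 17.1 against 22.0 and 20.3, above the controls in both *Tdrd6*-/- samples, but its log2 change of 0.29 (SE 0.18) did not pass (adjusted p = 0.507, edgeR). The smallest p among the 54 tested *Topbp1* features was for junction 50 (95, 79, 119 and 160 counts), at 1.78% ± 0.0144 and 2.48% ± 0.447 of the gene count (SD, n = 2 each; adjusted p = 1, DESeq2). In *Brca1* only 3 of 52 segments and junctions were deep enough to be tested, and its segment 12, with 9, 13, 27 and 28 counts, was not among them. The most covered *Topbp1* intron, number 13, held 13.7% ± 2.66 and 13.03% ± 1.90 of intron counts, and intron 21 of *Brca1* held 12.5% ± 0.597 and 11.5% ± 1.63 (SD, n = 2 each). The smallest intron p was for intron 16 of *Topbp1* (35, 20, 35 and 40 counts) and intron 7 of *Brca1* (33, 32, 38 and 9 counts), in which a single sample, *Tdrd6*-/- replicate 2, was low.

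BRCA2 serves homologous recombination, and FANCD2 is the protein that is ubiquitinated in crosslink repair. *Brca2* (chromosome 5, 150522630 to 150570329) had 6205, 5991, 6301 and 5076 counts, or 237, 215, 199 and 159 CPM. Both *Tdrd6*-/- samples were below both controls, with a log2 change of -0.34 (SE 0.14, adjusted p = 0.244, edgeR). *Fancd2* (chromosome 6, 113531682 to 113597017) had 4373, 4212, 4901 and 4830 counts, and its groups overlapped in CPM (log2 change -0.06, SE 0.13, adjusted p = 0.908, edgeR). In *Brca2* an unannotated junction had the smallest p, with 22, 25, 54 and 35 counts, but its mean count was below the tested range. In *Fancd2* it was segment 47 (chr6:113581384-113581477), at 4.73% ± 0.0723 and 6.05% ± 0.586 of the gene count (SD, n = 2 each; log2 change 0.37, adjusted p = 0.977, DESeq2). The intron upstream of this segment, number 33 (chr6:113578492-113581383), had the smallest intron p, with 44, 27, 15 and 15 counts, and was too shallow to be tested. The intron on the other side of the segment, number 34, had 82, 65, 90 and 50 counts (log2 change in usage -0.02) and was also too shallow to be tested. In *Brca2*, intron 19 (8, 10, 24 and 16 counts) had the smallest p and intron 2 the most counts, at 19.7% ± 1.31 and 16.5% ± 0.0403 of the intron counts (SD, n = 2 each; adjusted p = 0.689, DESeq2), and in *Fancd2* intron 7 had the most (91, 93, 121 and 83 counts).

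Of the segments and junctions of the 9 genes, 361 were tested and 0 passed, against 0.221% of all 147710 segments and junctions tested. None of the 361 were of *Rnf8* or *Atm*, and 3 were of *Brca1*. At an unadjusted p under 0.05 there were 12 of the 361, or 3.32%, against 4.36% of all those tested. An edgeR usage test called 0 in these genes, but only 81 of all 321814 segments and junctions it tested. Of the introns of the 9 genes 58 were tested and 0 passed, against 1.94% of all 28903 introns tested. *Atr* held 40 of the 58, and no intron of *Atm*, *Brca1* or *Scml2* was tested. At an unadjusted p under 0.05 there was 1 of these 58 (intron 14 of *Atr*), or 1.72%, against 10.5% of all introns tested. The edgeR usage test called 0 introns in these genes, but only 2 of all 127248 introns it tested. The segment 13 of *Mdc1* was the 1 feature of all 10 genes that passed in the fit across all features, among 393 tested, and for it nothing is read from that, because it was the reason for the choice of the gene. The edgeR usage test gave it a log2 change of 0.45 without a call.

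By level, the 9 genes with rows of their own spanned a wide range, from *Atr* at 262 CPM per kb, over *Mdc1* at 54.3 ± 22.3, *Topbp1* at 34.3 ± 3.71, *Fancd2* at 19.7 ± 0.9504, *Brca2* at 18.9 ± 3.08 and *Trp53bp1* at 9.19 ± 1.66, down to *Scml2* at 3.34 ± 0.540, *Brca1* at 2.27 ± 0.277 and *Atm* at 2.10 ± 0.283 (SD, n = 4 samples). Only some neighbours in this order could be told apart. *Brca1* and *Atm* overlapped over the 4 samples. *Fancd2* and *Brca2* also overlapped over the 4 samples, with *Fancd2* the higher in both *Tdrd6*-/- samples and *Brca2* in both *Tdrd6*+/- samples. *Scml2* was above *Brca1* within each genotype, at 2.56, 3.46, 3.54 and 3.79 against 2.06, 2.02, 2.60 and 2.40 CPM per kb, although the ranges over all 4 samples overlapped. In *Tdrd6*+/- *Mdc1* was above *Topbp1* (73.2 ± 6.52 against 34.8 ± 6.31 CPM per kb, SD, n = 2 each), whereas in *Tdrd6*-/- they were at 35.4 ± 4.58 and 33.8 ± 0.653 (SD, n = 2 each) and overlapped.

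*Scml2* (ENSMUSG00000000037, chromosome X, 161117193 to 161258213, plus strand) was the 1 gene besides *Mdc1* with a call, in its introns relative to its exons. Its gene counts were 407 and 586 in *Tdrd6*+/- and 681 and 738 in *Tdrd6*-/-. In CPM these were 15.5, 21.04, 21.5 and 23.1, so both *Tdrd6*-/- samples were higher, with a log2 change of 0.29 (SE 0.19) that did not pass (adjusted p = 0.551, edgeR). Its introns went the other way, with 519, 663, 471 and 378 counts. There were 128 and 113 intron counts per 100 exonic counts in *Tdrd6*+/- and 69.2 and 51.2 in *Tdrd6*-/-, without overlap. In the median gene this load also differed, at 77.9, 64.8, 64.2 and 47.9. Relative to the median gene, *Scml2* stood at 1.64 and 1.75 in *Tdrd6*+/- and at 1.08 and 1.07 in *Tdrd6*-/-, so it came down to the load of the median gene.

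In the fit across genes, the intron to exon ratio of *Scml2* fell by 0.74 on the log2 scale (SE 0.21, adjusted p = 0.0299 by likelihood ratio test in DESeq2 with Benjamini-Hochberg correction). Of the 5177 genes tested, 3.82% passed in either direction and 2.65% downwards. Of the 10 genes, 7 with rows of their own reached the tested range, and 2 passed, *Scml2* and *Mdc1*, the latter not to be read as a test. The scaled intron count of *Scml2* was 574 ± 125 in *Tdrd6*+/- and 434 ± 11.9 in *Tdrd6*-/- (SD, n = 2 each), so that it reached the tested range, a mean of 443, through the *Tdrd6*+/- samples. Dropping only the minimum of 10 counts in total gave an adjusted p of 0.0205 (DESeq2). The filter on the mean count stayed in that fit, so it does not show the call without this dependence. The call held with edgeR's quasi-likelihood test (adjusted p = 0.0131). It was lost without *Tdrd6*+/- replicate 1 (adjusted p = 0.999), without *Tdrd6*-/- replicate 1 (adjusted p = 0.163) and without *Tdrd6*-/- replicate 2 (adjusted p = 1, DESeq2), with log2 changes of -0.72, -0.77 and -0.74. Without *Tdrd6*+/- replicate 2, and with 1 size factor per sample, *Scml2* was below the tested range. Of 66 X-linked genes tested in this fit, *Scml2* was the 1 that passed, none passed upwards, and the median log2 change was 0.05, against -0.02 in 5090 autosomal genes.

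**Figure D4:**
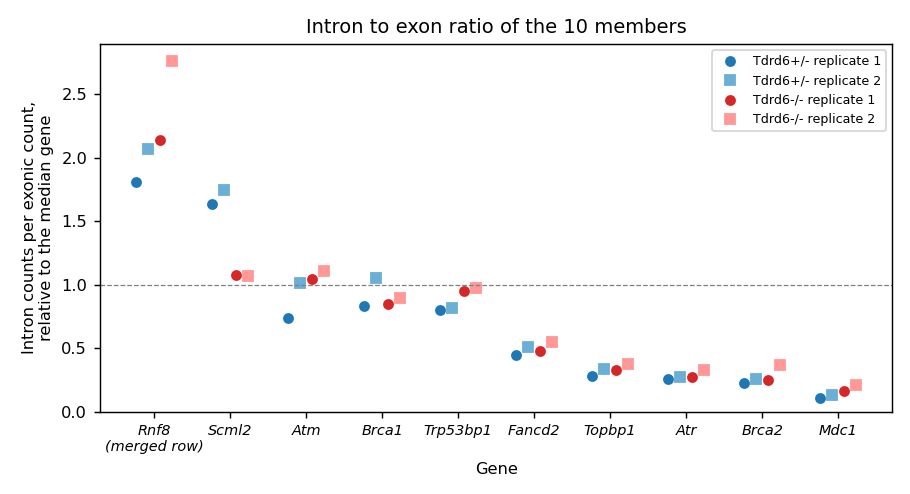
Intron counts per exonic count divided by the value of the median gene (y axis; dashed line at 1) for the 10 genes (x axis) in each sample, where the point of *Rnf8* is the merged row of 5 genes. *Scml2* is the gene in which both red *Tdrd6*-/- points (1.08 and 1.07) lie below both blue *Tdrd6*+/- points (1.64 and 1.75), and *Mdc1* has the lowest values.

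The *Scml2* introns did not all move alike. Of its 31 introns 15 had at least 40 counts over the samples, and after scaling 8 of these were lower in both *Tdrd6*-/- samples, 1 was higher and 6 overlapped. Of all introns with that many counts, 22.5% were lower in both *Tdrd6*-/- samples and 18.2% higher. The long intron 3 (chrX:161124430-161144762) had 41, 42, 17 and 16 counts, the smallest intron p of the gene, and intron 24 (chrX:161231484-161234572), the most covered, had 73, 97, 74 and 68 counts and a share of the intron counts that was higher in both *Tdrd6*-/- samples. No *Scml2* intron reached the tested range for its own usage. Among segments and junctions 11 of 79 were tested, and the smallest p was for junction 65, with 1, 1, 5 and 10 counts, which was not.

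*Scml2* also holds a repeat. Of its 41 exon segments 12 are 84 bp long, and 8 of these, segments 20 to 27, lie in a row and are near copies. In the GENCODE M21 transcripts, 6 of the 8 have one and the same sequence and the other 2, segments 22 and 25, share a second one with 97.6% identity to the first. The flanking segments 19 and 29 are more distant, at 64.3% identity to segment 20 for segment 19 and 70.2% to segment 27 for segment 29. The sequences of segments 19, 20, 22 and 29 are printed 5′ to 3′ on the coding strand, with the 26 bases that all 12 segments share in capitals.
Segment 19, chrX:161215180-161215263: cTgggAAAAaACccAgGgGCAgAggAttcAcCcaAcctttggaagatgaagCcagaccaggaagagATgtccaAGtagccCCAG
Segment 20, chrX:161221666-161221749: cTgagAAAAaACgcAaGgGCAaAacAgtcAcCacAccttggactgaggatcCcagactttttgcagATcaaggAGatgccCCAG
Segment 22, chrX:161224461-161224544: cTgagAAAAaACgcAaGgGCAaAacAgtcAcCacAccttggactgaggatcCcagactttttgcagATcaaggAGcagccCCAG
Segment 29, chrX:161234613-161234696: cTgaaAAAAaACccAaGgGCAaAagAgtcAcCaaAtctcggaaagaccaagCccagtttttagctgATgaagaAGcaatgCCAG
A fragment that lies within identical copies has no single origin, and how such fragments were counted is not given in the sources used here.

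Counts were low over the copies. Segments 18 and 19, just before the copies, had 220 and 218 counts over the 4 samples, and the total then went down to 16 in segment 22 in the middle of the copies and was 125 in segment 27. Segment 22 itself had 3, 3, 4 and 6 counts, and segment 29, behind the copies, 41, 59, 61 and 53. The dip was seen in each of the 4 samples. The introns between the copies, numbers 17 to 23 (1220 to 1412 bp), held between 2 and 9 counts each over the 4 samples. Intron 15 (1855 bp), before the copies, had 86, and intron 24 (3089 bp), behind them, had 312. Both the gene count and the intron count of *Scml2* are uncertain over these copies. What set the low counts of these segments and introns was not tested.

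**Figure D5:**
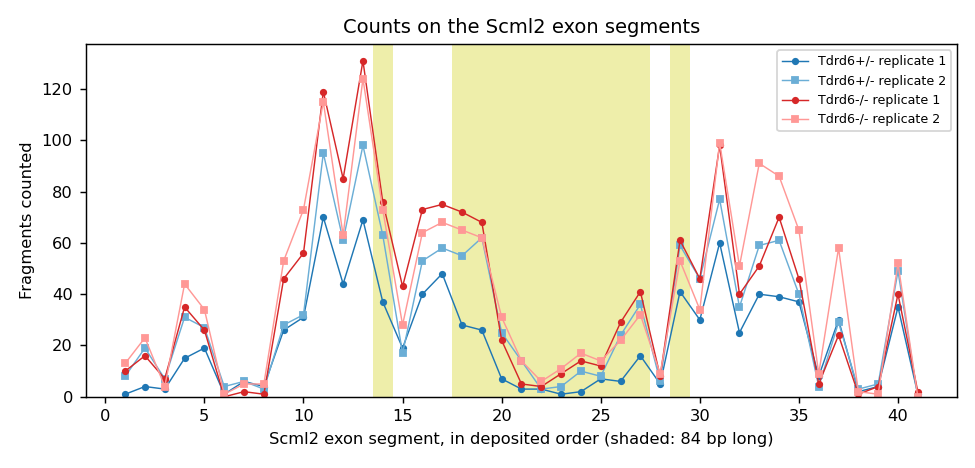
Fragments counted on each of the 41 *Scml2* exon segments (y axis, from 0) along the gene in deposited order (x axis), with 1 line per sample and shading over the 84 bp segments. All 4 lines dip in the middle of the shaded block, where segment 22 has 16 counts over the samples, and recover to 214 at segment 29.

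The intron loads of the remaining genes gave no call. Relative to the median gene they were 0.797, 0.813, 0.952 and 0.972 in *Trp53bp1* (log2 change 0.18, adjusted p = 0.764), 0.282, 0.335, 0.329 and 0.372 in *Topbp1* (log2 change 0.10, adjusted p = 0.88), 0.225, 0.258, 0.250 and 0.368 in *Brca2* (log2 change 0.25, adjusted p = 0.727), and 0.446, 0.506, 0.476 and 0.546 in *Fancd2* (log2 change 0.02, adjusted p = 0.982, all by likelihood ratio test in DESeq2). In *Trp53bp1* both *Tdrd6*-/- samples were higher, and in the other 3 the groups overlapped. *Atr* gave a log2 change of 0.07 (adjusted p = 0.914, DESeq2). *Atm* and *Brca1* had too few intron counts to be tested, and the merged row with *Rnf8* gave 0.25 when merged rows were kept (adjusted p = 0.637, DESeq2). Relative to the median gene, both *Tdrd6*-/- samples were also higher in *Atm* (0.739, 1.01, 1.05 and 1.11). The same held for the merged row (1.81, 2.07, 2.14 and 2.76), while the groups overlapped in *Brca1*. The 9 genes other than *Mdc1* thus gave 1 call in this measure, in *Scml2*.

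Other genes of the pathway were read from 4 lists of 70 genes, of which 69 were tested at the gene level. None was called higher, against 1.02% of all genes in edgeR, and 4 were called lower, or 5.80% of those tested, against 3.78% of all genes. Among 20 sensor and kinase genes, such as *Chek1* and *Nbn*, 0 passed in either direction, with a median log2 change of -0.06. Among 20 genes of the ubiquitin and BRCA1 complexes 2 passed. Of these *Rnf2*, a Polycomb ubiquitin ligase, had 2340, 1655, 1455 and 1536 (log2 change -0.66, SE 0.17, adjusted p = 0.0272, edgeR). Both *Tdrd6*-/- samples were below the controls in CPM without overlap. Among the Fanconi anaemia genes *Slx4*, a scaffold of structure-specific nucleases, passed with 11101, 15451, 11939 and 10394 counts (log2 change -0.48, SE 0.14, adjusted p = 0.0746, edgeR). Among the genes of sex chromosome silencing *Atf7ip*, a partner of the methyltransferase SETDB1, passed with 3244, 3460, 2765 and 2374 counts (log2 change -0.62, SE 0.14, adjusted p = 0.0116, edgeR). In the usage fits *Atf7ip* had 2 called segments or junctions and 1 called intron, *Xrcc2* had 1 called segment or junction and *Bard1* 1 called intron. Of all segments and junctions tested 0.221% passed, and of all introns 1.94%. The number of features tested in these lists is not given here, so the calls cannot be compared with those shares. The median log2 change over all 4 lists was -0.06, against 0.01 for all genes.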

How the data were processed

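Diplotene-enriched testis cells of 2 *Tdrd6*+/- and 2 *Tdrd6*-/- pools were sequenced as paired-end fragments. The authors aligned these to mm10 with GSNAP and used the annotation of Ensembl release 75, and the submitters' processing notes name bcl2fastq 1.8.4. The deposited values were raw counts, not normalized, on genes, exon segments, annotated and unannotated junctions in one file per sample and on numbered introns in another. The counting program, its use of strand and its treatment of fragments that match several places are not given in the sources used here. The library kit keeps strand. Within a gene, 1 fragment may be counted on more than 1 segment.

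The files hold no coordinates. Transcripts of GENCODE M21 (GRCm38, the same build) with older Ensembl identifiers were flattened into segments and introns and placed by order where the numbers agreed, which held for all genes described here but *Atm* and *Rnf8*.

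Gene counts entered the quasi-likelihood test of edgeR 4.0.16 over 16555 genes, after filterByExpr and TMM. Usage of introns, and of segments and junctions, was fitted with the DEXSeq and JunctionSeq models through DESeq2 1.42.0 in R 4.3.3, since those packages were not installed. Each feature with 10 or more counts in total was compared with the rest of its gene by a likelihood ratio test, with merged gene rows left out for segments and junctions. The mean counts from which features were tested were 85.5 for introns, 53.4 for segments and junctions and 443 for the intron to exon ratio, which sets a gene's summed intron count against its exonic count, each with its own size factors. P-values were adjusted over all features by Benjamini-Hochberg at a false discovery rate of 0.1. CPM is after TMM, and lengths are of merged exons. The scripts were tested on simulated data.

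The members and the pathway and marker lists were chosen with earlier results of these data known. Named were all members, exon segment 13 of *Mdc1*, every feature that passed, for each member the intron and the segment or junction with the smallest p and the most covered intron, and pathway genes that passed in edgeR (at most 4 a list and direction), of which 1 is not reported here. Features outside this rule (the *Mdc1* neighbours of segment 13, its start segments and the *Scml2* repeat segments, the comparison with other X-linked genes) were chosen after their values were seen. Counting error sets the precision at low counts, and 2 pools per genotype set that of the tests. Alternatives were other size factors, no filter on low counts, the replicate number as a block, each sample left out, the other tool, merged gene rows kept, unannotated junctions left out, and the exonic count as reference for introns. In the usage and ratio fits, no filter meant dropping the minimum total count, while the filter on the mean count stayed.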

Additional observations from a re-analysis of the deposited data

How the results depend on the processing

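No value reversed its direction, but the counts of called members changed with several settings, most often for the intron to exon ratio. Calls of *Mdc1* are included in these counts, but they are not to be read as tests, because the gene was chosen from these same samples. At the gene level 1 gene was called, *Mdc1*, and 2 with the replicate block, where *Trp53bp1* was added (adjusted p = 0.0449, edgeR), and leaving out 1 sample gave 1 to 2, with 2 without *Tdrd6*+/- replicate 2. The labels give replicate numbers without saying that they pair the samples, and over 12347 genes, samples of the same number deviated from their genotype's mean with r = -0.11, so the block is an assumption. Member segments and junctions with changed usage were 1 (*Mdc1* segment 13, the value by which the gene was chosen) and 0 with the edgeR usage test. Member introns with changed usage were 0, 0 to 1 when 1 sample was left out (intron 44 of *Atr* without *Tdrd6*+/- replicate 2, which had 610 counts against 324 in the other control), and 1 (intron 1 of *Mdc1*) with the exonic count as reference. The intron to exon ratio gave 2 genes, 1 with edgeR's quasi-likelihood test, and 0 with the replicate block (adjusted p = 0.14 for *Scml2*, DESeq2), with 1 size factor per sample and whichever sample was left out (0 to 0). *Scml2* was below the tested range with 1 size factor and without *Tdrd6*+/- replicate 2. The counts over all features moved more: genes from 794 to 75 without the filter on low counts and 257 without *Tdrd6*-/- replicate 2, introns from 561 to between 4 and 1175 with 1 sample left out, 881 with the block, 1266 with the exonic reference and 2 with the edgeR usage test, segments and junctions from 327 to between 51 and 763 with 1 sample left out and 81 with the edgeR usage test, and ratios from 198 to 5 without *Tdrd6*-/- replicate 2, 6 without *Tdrd6*+/- replicate 1, 111 with the block, 347 with edgeR and 71 with 1 size factor. Depth limited *Atm*, *Brca1* and *Scml2*, whose introns were below the tested range.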
